A study of Macaca mulatta and Mus musculus and Rattus norvegicus with 12 samples.

Results

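The genes described here were the ligands, receptors and binding proteins of the insulin-like growth factor (IGF) family. The members were set as 10 symbols: IGF1, IGF2, IGF1R, IGF2R, IGFBP2, IGFBP3, IGFBP4, IGFBP5, IGFBP6 and IGFBP7. A gene was taken when the symbol that opens its description in the gene tables, put in upper case, matched one of these, and human-style capitals are used for all species below. These 10 genes stood among 75861 distinct symbols over the 3 species. All 10 had a row in mouse (of 38599 symbols) and in rat (of 35259), and 8 had one in rhesus macaque (of 28641). IGF2 and IGFBP6 were absent from macaque by this rule, although 2 macaque genes listed under LOC numbers carry related descriptions and are given separately.

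The study compared the RNA of bone enriched for osteocytes, the cells buried in bone matrix, between 2 skeletal sites, the calvaria or skull roof and the tibia or shin bone, to find genes that differ by skeletal site in several species. All animals were female, and no treatment is named for any group. Mouse libraries came from 4 month old C57BL6 animals, each pooled from 3 animals, of which M4 and M8 were from calvaria and M5 and M7 from tibia. Rat libraries came from 6 month old Wistar animals, each pooled from 2 animals, with 1 calvaria library (R1) and 1 tibia library (R3), so rat values have no replicates. Macaque libraries each came from 1 animal, with 3 from calvaria (G1, G3 and T1) and 3 from tibia (G2, G4 and T2). According to the methods, each animal or pool gave both a calvaria and a tibia library, so the macaque libraries came from 3 animals. The pairs are not named, and the fits below leave the pairing out unless a block is stated. The labels give the macaque ages as 4 to 6 months where the study's methods give the same figures in years.

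Reads counted on named genes lay between 13934813 and 16826535 in the mouse libraries, between 12233256 and 14255423 in rat and between 7951585 and 10342459 in macaque. Osteocyte markers were present in every library, but at different levels in the sites. Their summed CPM (reads scaled to a common library total) were 981 to 1854 in mouse calvaria against 8016 to 10434 in mouse tibia, 500 against 7242 in rat, and 4454 to 5468 against 7242 to 18821 in macaque, where 3 of the 6 markers had a row. The macaque difference was that of MEPE, a matrix protein of osteocytes, which stood at -1.40 on the log2 scale (adjusted p 0.0138 in edgeR's quasi-likelihood test), while DMP1 and PHEX were not called, at -0.20 and 0.22. In rat, FGF23 had 0 reads in both libraries and SOST, which osteocytes secrete to restrain bone formation, had 5 reads in calvaria and 15 in tibia. MEPE and SOST are among genes the study itself picked from these libraries, so they are not independent evidence. The summed CPM of 6 neutrophil markers was higher in calvaria, at 90540 to 113302 against 58007 to 63302 in mouse, 79474 against 42792 in rat, and, over the 4 with a row, 35276 to 52267 against 7764 to 13806 in macaque. In bulk RNA such as this, fewer cells of a type and less RNA per cell cannot be told apart, and the part of cell make-up in the results below was not tested.

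IGF1 and IGF2 are small secreted growth factors. Both signal through the tyrosine kinase receptor IGF1R, while IGF2R binds IGF2 and carries it to lysosomes for breakdown. Most of the IGF in tissue fluid is held by IGFBPs, which carry the ligands, keep them from the receptor or release them when proteases cut the IGFBP. In bone, IGF1 is made by cells of the osteoblast lineage as well as in the liver, and bone matrix stores IGFs together with IGFBP5. IGFBP7 is the most distant relative of the group, with low affinity for IGFs.

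In mouse, the 10 genes lie on 7 chromosomes (GENCODE vM21 on GRCm38). Igf1 is on chromosome 10 (87858265 to 87937042, plus strand), Igf2 on chromosome 7 (142650766 to 142666816, minus strand), Igf1r on chromosome 7 (67952827 to 68233668, plus strand) and Igf2r on chromosome 17 (12682406 to 12769664, minus strand). Igfbp2 (72824503 to 72852474, plus strand) and Igfbp5 (72857932 to 72874884, minus strand) are neighbours on chromosome 1, with 5457 bases between them. Igfbp3 (7206086 to 7213923, minus strand) and Igfbp4 (99041244 to 99054392, plus strand) are both on chromosome 11. Igfbp6 is on chromosome 15 (102144362 to 102149511, plus strand) and Igfbp7 on chromosome 5 (77349240 to 77408041, minus strand). Reads were counted on exons without regard to strand, and 2 of the genes share exonic bases with others. Igf2 shares 3596 exonic bases with Gm49394 on its own strand and 98 with the antisense gene Igf2os. Igfbp7 shares 85 with Polr2b on the opposite strand. These overlaps are those of GENCODE vM21, while the study took its mouse gene annotation from UCSC. How reads from these stretches were counted was not checked.

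Among the genes matched by symbol, binding proteins had a higher summed level than ligands in all 12 libraries. Levels per length are given here as RPKM, reads scaled to exonic length and library total, the only scale on which genes were compared with each other. In mouse, the highest levels were those of IGFBP4, which holds IGFs away from their receptor until it is cut, and IGFBP7. IGFBP4 had an RPKM of 184 ± 2.53 (SD, n = 2) in calvaria and 319 ± 59.3 in tibia, and IGFBP7 94.5 ± 30.8 and 325 ± 54.3. IGFBP5 followed with 65.7 ± 29.8 and 129 ± 13.6, within the spread of IGFBP7 in calvaria and below it in tibia. The other 7 genes lay between 1.68 and 26.5 in site means. Among all 16740 mouse genes tested, IGFBP4 ranked 236 by level and IGFBP7 292.

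Among the macaque genes matched by symbol the same pair was at the top, with IGFBP4 at 151 ± 23.3 RPKM in calvaria and 159 ± 25.5 in tibia (SD, n = 3) and IGFBP7 at 92.7 ± 32.6 and 212 ± 64.3. IGFBP3, the main carrier of IGFs in blood, came next with 40.4 ± 17.3 and 92.4 ± 32.9. The 2 macaque genes under LOC numbers had higher site means than these at both sites, 355 and 538 RPKM for LOC721120 and 167 and 259 for LOC699022. IGF1 stood at 28.7 ± 5.40 and 26.0 ± 8.44. The lowest level was that of IGF1R, at 0.975 ± 0.309 and 1.87 ± 0.377. In rat, IGFBP7 was highest with 114 in calvaria and 190 in tibia, ahead of IGFBP4 with 62.2 and 108. IGFBP3 stood at 76.9 in rat tibia, below IGFBP7 and IGFBP4, and at 7.55 in rat calvaria, below IGFBP5, IGF1 and IGF2R as well. Exonic lengths differ between the annotations, so these levels were not compared between species.

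The share of each gene in the summed per-length level of the family shows how the make-up differed between libraries. The sum covers the genes matched by symbol and leaves out the 2 LOC genes of macaque. On that sum IGFBP4 and IGFBP7 were the 2 largest shares in every library. IGFBP7 made up 26.1% and 22.0% of the sum in the mouse calvariae M4 and M8 and 38.7% and 38.6% in the tibias M5 and M7. In macaque it made up 29.9% (G1), 27.5% (G3) and 22.7% (T1) of the sum in calvaria against 45.3% (G2), 44.8% (G4) and 31.9% (T2) in tibia. The rat went the other way, with 42.4% in calvaria and 33.1% in tibia, where IGFBP2 and IGFBP3 took 7.13% and 13.4% of the sum against 1.19% and 2.81% in calvaria.

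**Figure D1:**
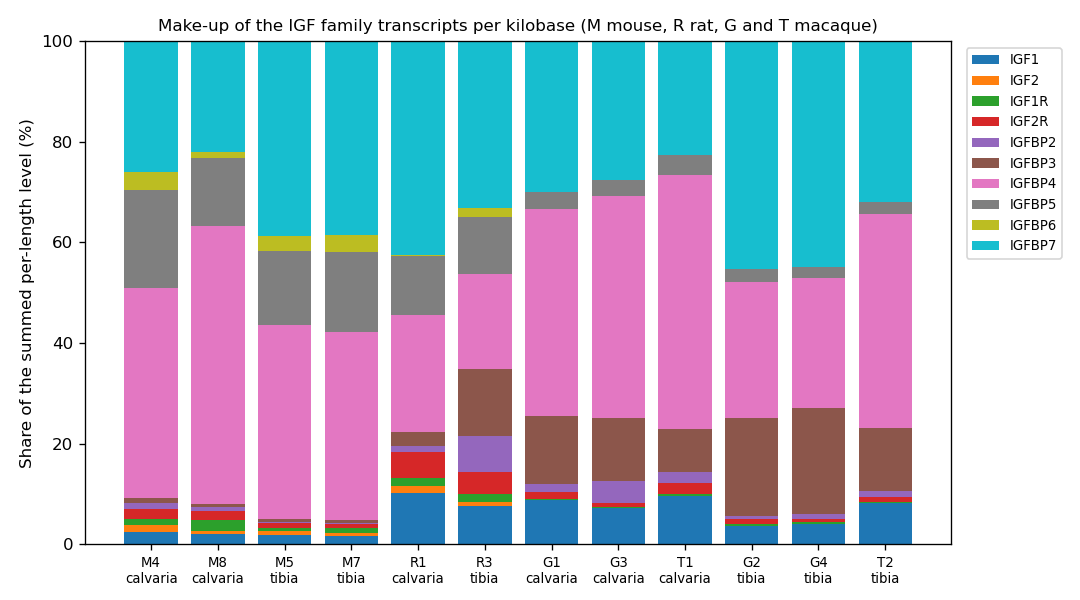
Share of each IGF family gene in the summed level per kilobase, in percent (vertical axis), for each of the 12 libraries (horizontal axis, with the site under the library name). IGFBP4 (pink) and IGFBP7 (light blue) fill most of every bar, with the 2 LOC genes of macaque left out, and IGFBP7 takes 38.7% and 38.6% in the 2 mouse tibias against 26.1% and 22.0% in the calvariae.

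The summed IGFBP level exceeded the summed ligand level everywhere. The ratio was 24.0 (M4) and 34.4 (M8) in mouse calvaria and 36.1 (M5) and 40.9 (M7) in mouse tibia. In rat it was 7.08 in calvaria and 10.0 in tibia. In macaque, where IGF1 was the only ligand counted, it was 10.2 (G1), 12.5 (G3) and 9.07 (T1) in calvaria and 25.9 (G2), 23.7 (G4) and 11.1 (T2) in tibia. The mouse sites did not overlap, and the macaque sites overlapped because T2 lay below G3. Within each assumed pair (G1 and G2, G3 and G4, T1 and T2, which the labels do not name) tibia had the higher ratio. These macaque ratios depend strongly on which genes are counted as ligands: with the 2 LOC genes added they lay between 1.07 and 1.50. Tibia was then higher in the assumed pairs G1 and G2 (1.07 and 1.29) and T1 and T2 (1.20 and 1.50). It was lower in G3 and G4 (1.44 and 1.20).

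The first comparison was calvaria against tibia in mouse, tested with edgeR's quasi-likelihood test over 16740 genes with at least 1 read in every mouse library. Fold changes are given as calvaria relative to tibia, with negative log2 values for genes higher in tibia, and values per library are normalised CPM, reads scaled by library size and the trimmed mean of M values (TMM) factor. To be called, a gene needed an adjusted p below 0.2 together with a linear fold above 1.1. In mouse 0 of the 10 genes were called, where 0.0836% of all tested genes were (0.0777% with tibia higher and 0.00597% with calvaria higher). An unadjusted p under 0.05 was found for 3 of the 10 (IGFBP4, IGFBP5 and IGFBP7), all higher in tibia, and for 1256 of all 16740 genes. Of the 10, edgeR's exact test and DESeq2 each called 1, IGFBP7. Those tests called 2.52% and 2.59% of all genes, and the exact test called 1.88% with tibia higher. With a replicate block for assumed pairs IGFBP7 was called as well, at an adjusted p of 0.171 in edgeR's quasi-likelihood test, where 0.382% of all genes were. The sites did not overlap for 7 of the 10, where 40.1% of all tested genes had no overlap, and 6 of these were higher in tibia (20% of all genes). A total of 8 of the 10 had a log2 fold change below 0, against 45.1% of all tested genes, and the median was -0.69 against 0.05 over all genes.

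Of the ligands, mouse IGF1 had 98.4 CPM (M4) and 65.5 (M8) in calvaria and 153 (M5) and 115 (M7) in tibia. Both tibias were above both calvariae, with a log2 fold change of -0.71 (SE 0.284) and an adjusted p of 0.661 in edgeR's quasi-likelihood test. IGF2 had 30.1 (M4) and 10.6 (M8) in calvaria and 31.7 (M5) and 21.5 (M7) in tibia. The sites overlapped, and the IGF2 log2 fold change of -0.38 (SE 0.517) was smaller than its error.

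The receptors were nearly level between the sites of the mouse. IGF1R, which signals for both ligands, had 68.1 (M4) and 95.2 (M8) CPM in calvaria and 75.1 (M5) and 75.4 (M7) in tibia, a log2 fold change of 0.12 (SE 0.233). IGF2R had 73.4 (M4) and 55.8 (M8) in calvaria and 74.9 (M5) and 60.2 (M7) in tibia, a log2 fold change of -0.06 (SE 0.238). The sites overlapped for both receptors.

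Among the mouse binding proteins, IGFBP7 showed the largest difference. It had 141 (M4) and 93.8 (M8) CPM in calvaria and 420 (M5) and 345 (M7) in tibia. The lowest tibia thus stood well above the highest calvaria, with a level 3.26-fold higher in tibia, a log2 fold change of -1.71 (SE 0.282) and an unadjusted p of 0.00128, rank 69 of 16740. The adjusted p was 0.305 in edgeR's quasi-likelihood test, 0.00141 in edgeR's exact test and 0.000158 in DESeq2. Whether IGFBP7 passed the threshold in mouse thus turned on the test. In the quasi-likelihood test it also turned on the genes kept and the design. The adjusted p was 0.00853 with all symbols that had a read in some library, and 0.171 or 0.174 with a block for assumed pairs. Its log2 fold change stayed between -1.78 and -1.70 over the settings that kept all libraries.

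IGFBP5, the form most abundant in bone matrix, had 507 (M4) and 278 (M8) CPM in mouse calvaria and 773 (M5) and 693 (M7) in tibia. IGFBP4 had 384 (M4) and 401 (M8) in calvaria and 712 (M5) and 569 (M7) in tibia. Neither gene overlapped between the sites, and their log2 fold changes were -0.90 (SE 0.337) for IGFBP5 and -0.71 (SE 0.227) for IGFBP4, with adjusted p of 0.642 and 0.621 in edgeR's quasi-likelihood test. IGFBP6, which prefers IGF2 as its ligand, had 20.5 (M4) and 5.34 (M8) CPM in calvaria and 35.5 (M5) and 30.8 (M7) in tibia, a log2 fold change of -1.35 (SE 0.604). IGFBP3 had 10.6 (M4) and 4.50 (M8) in calvaria and 12.2 (M5) and 11.8 (M7) in tibia, a log2 fold change of -0.67 (SE 0.456).

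IGFBP2, a binding protein that also acts on the cell surface, was the one mouse binding protein with more reads in calvaria. It had 8.47 (M4) and 3.89 (M8) CPM in calvaria and 3.23 (M5) and 1.57 (M7) in tibia, from 132, 51, 57 and 23 reads. The sites did not overlap, though M8 and M5 were close, and the level was 2.56-fold higher in calvaria with a log2 fold change of 1.36 (SE 0.593) and an adjusted p of 0.676 in edgeR's quasi-likelihood test. Its neighbour on chromosome 1, IGFBP5, thus had the opposite sign.

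The mouse calvariae differed from each other in these genes. M8 lay below M4 in normalised CPM for 8 of the 10, where it did so for 8371 of all 16740 tested genes. Without M4, edgeR's quasi-likelihood test called 8 of the 10 genes, and without M8 it called 6, but over all genes it then called 7174 and 3388 in place of 14. With 1 calvaria library left, that library was assumed to vary as the tibias did. The log2 fold change without M4 and without M8 was -2.66 and -0.70 for IGFBP6, -1.44 and -0.18 for IGFBP3, -1.42 and -0.53 for IGFBP5, and 0.66 and 1.80 for IGFBP2. For IGF2 it was -1.35 without M4 and 0.17 without M8, so its direction rested on which calvaria was used. Without M5 or without M7 no gene of the family was called.

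Marker genes of other cells moved with site in the same mouse libraries. The summed CPM of 6 pericyte and stromal markers (CXCL12, LEPR, RGS5, PDGFRB, ACTA2 and NOTCH3) was 994 to 1069 in calvaria and 1932 to 2240 in tibia. The 7 endothelial markers summed to 143 to 164 in calvaria and 215 to 244 in tibia, the 5 adipocyte markers to 186 to 514 and 1029 to 1387, and the 5 chondrocyte markers to 11.6 to 66.1 and 500 to 641. The sums did not overlap between the sites for any of these 4 lists, where 40.1% of all tested genes had no overlap. No single marker of these lists was called in edgeR's quasi-likelihood test. PDGFRB of the pericyte and stromal list (0.38), VWF of the endothelial list (0.42) and COL9A1 of the chondrocyte list (0.27) had log2 fold changes above 0, against their lists. The part of these cells in the IGFBP values was not tested.

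**Figure D2:**
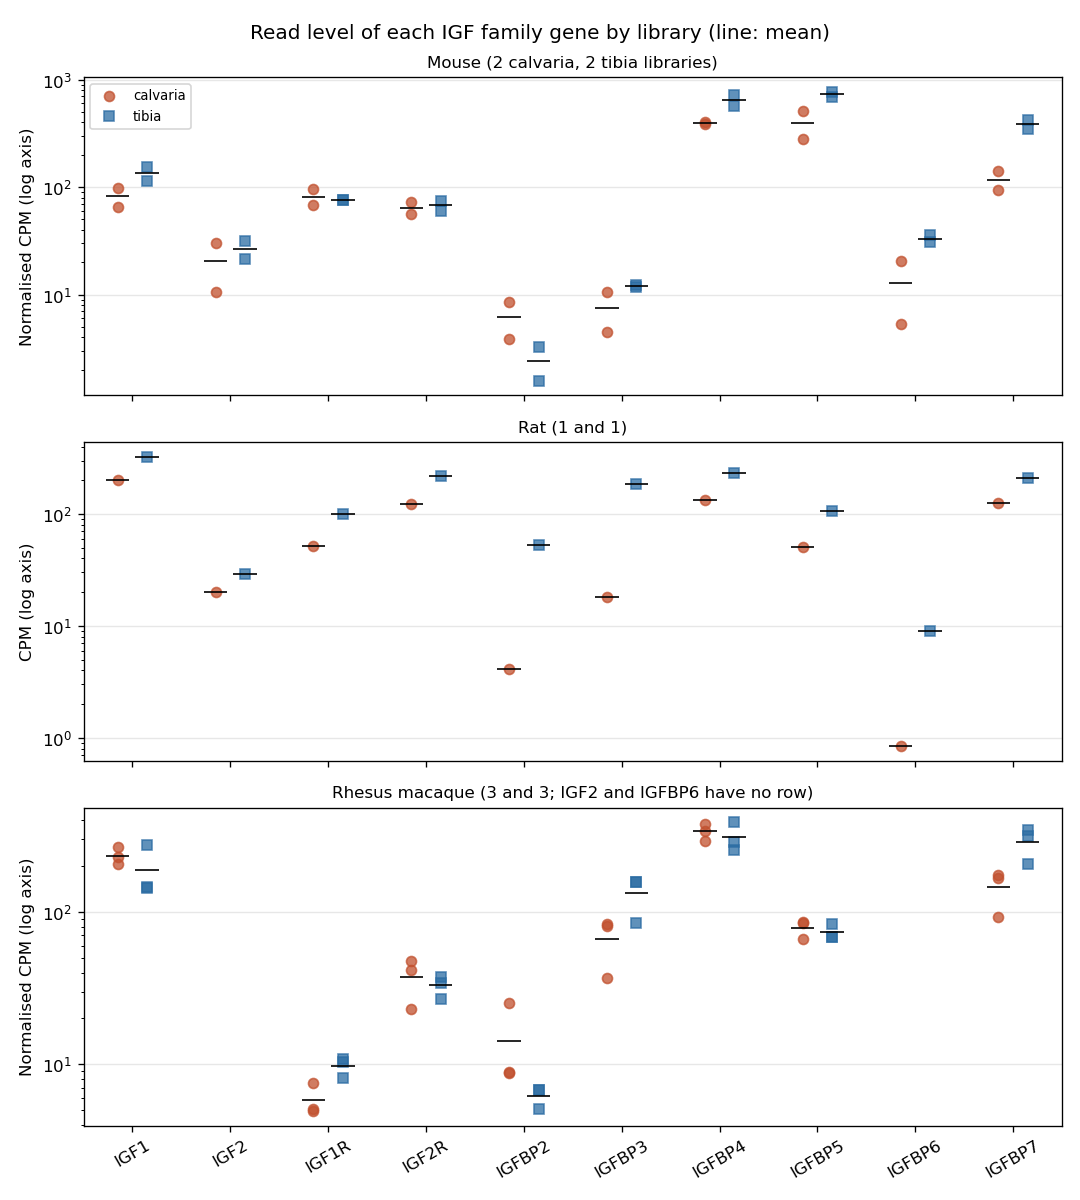
Normalised CPM (mouse, macaque) or CPM (rat) of each gene on a log axis, 1 point per library, calvaria as orange circles and tibia as blue squares, with a line at the mean. Mouse and macaque IGFBP7 separate by site with tibia higher, from 345 CPM up in mouse tibia against at most 141 in calvaria, and IGFBP2 lies higher in calvaria in mouse and macaque but lower in rat.

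In macaque, the same comparison over 13094 genes called 4 of the 8 genes, where 28.8% of all tested genes were called. The binding proteins IGFBP7, IGFBP3 and IGFBP2 changed with site, the former 2 with more reads in tibia and IGFBP2 with more in calvaria, and IGF1R was higher in tibia. The sites did not overlap for those 4 genes, against 32.3% of all tested genes, and 3 of them were higher in tibia (15.8% of all genes). A total of 3 of the 8 had a log2 fold change below 0, where 50.1% of all tested genes did. The median over the 8 genes was 0.11, with 0.00 over all genes.

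Macaque IGFBP7 had 175 (G1), 167 (G3) and 93.1 (T1) CPM in calvaria and 342 (G2), 314 (G4) and 206 (T2) in tibia. All 3 tibias were above all 3 calvariae, and the level was 1.98-fold higher in tibia, a log2 fold change of -0.99 (SE 0.257) with an adjusted p of 0.0303 in edgeR's quasi-likelihood test. The call held with each library left out in turn, with adjusted p between 0.00397 and 0.141. IGFBP3 had 83.5 (G1), 80.3 (G3) and 36.6 (T1) CPM in calvaria and 156 (G2), 156 (G4) and 85.1 (T2) in tibia. The tibia T2 was close to the calvaria G1, and the IGFBP3 log2 fold change was -0.98 (SE 0.311) with an adjusted p of 0.0645 in edgeR's quasi-likelihood test. Without G2 the IGFBP3 call was lost, at an adjusted p of 0.221. For both genes T1 was the lowest calvaria and T2 the lowest tibia. With the letter of the labels, G or T, which also marks the deposited table, as a batch term, the log2 fold changes were -1.01 for IGFBP7 and -1.02 for IGFBP3, and all 4 calls held. A block for the assumed pairs gave adjusted p of 0.000484 for IGFBP7 and 0.000516 for IGFBP3 in edgeR's quasi-likelihood test, where 37.2% of all genes were called.

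Macaque IGFBP2 had 8.82 (G1), 25.3 (G3) and 8.87 (T1) CPM in calvaria and 5.12 (G2), 6.75 (G4) and 6.79 (T2) in tibia, from 47 to 201 reads per library. One calvaria, G3, stood far above the rest. The level was 2.30-fold higher in calvaria, a log2 fold change of 1.20 (SE 0.422) with an adjusted p of 0.0912 in edgeR's quasi-likelihood test, but without G3 it was 0.51 with an adjusted p of 0.411. Without G2 the call was lost as well, at an adjusted p of 0.267.

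IGF1R had 7.61 (G1), 4.92 (G3) and 5.10 (T1) CPM in macaque calvaria and 10.4 (G2), 10.9 (G4) and 8.15 (T2) in tibia, from 39 to 95 reads. The receptor was 1.66-fold higher in tibia, a log2 fold change of -0.73 (SE 0.319) with an adjusted p of 0.166 in edgeR's quasi-likelihood test. This call was the least firm of the 4. It was lost without G2, G3, G4 or T1, at adjusted p between 0.333 and 0.365, and after a correction for gene length, at 0.294, or with genes absent from some libraries added, at 0.209, and with the pair block and the length correction together, at 0.223.

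The remaining macaque genes did not pass the threshold in the fit without pairs. With a block for the assumed pairs together with a length correction, chosen after seeing the data, edgeR's quasi-likelihood test called IGF1 at 0.62 (adjusted p 0.0604), IGF2R at 0.38 (0.142) and IGFBP5 at 0.31 (0.183), all higher in calvaria. IGF1 had 266 (G1), 230 (G3) and 206 (T1) CPM in calvaria and 144 (G2), 146 (G4) and 273 (T2) in tibia. The tibia T2 was the highest of the 6 libraries, so the sites overlapped, and the log2 fold change was 0.32 (SE 0.242, adjusted p 0.440 in edgeR's quasi-likelihood test). Without T2 it was 0.69 with an adjusted p of 0.0119.

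IGFBP4 and IGFBP5, which had no overlap between the mouse sites, overlapped in macaque. IGFBP4 had 341 (G1), 375 (G3) and 293 (T1) CPM in calvaria and 287 (G2), 255 (G4) and 387 (T2) in tibia, a log2 fold change of 0.12 (SE 0.188). IGFBP5 had 84.2 (G1), 85.3 (G3) and 66.6 (T1) in calvaria and 83.7 (G2), 68.2 (G4) and 68.5 (T2) in tibia, a log2 fold change of 0.10 (SE 0.168). IGF2R had 41.7 (G1), 23.1 (G3) and 47.6 (T1) in calvaria and 37.6 (G2), 26.8 (G4) and 34.3 (T2) in tibia, a log2 fold change of 0.19 (SE 0.263). With library size alone as the scale, which moved the median of all macaque genes to -0.21, these 3 values were below 0, at -0.07 for IGFBP4, -0.11 for IGFBP5 and -0.02 for IGF2R.

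The 2 macaque genes under LOC numbers were among the most abundant of the family. LOC721120, described as similar to IGF2, had no match by gene number in the RefSeq gene table, so its identity with IGF2 was not established. It had 484 (G1), 433 (G3) and 352 (T1) CPM in calvaria and 603 (G2), 609 (G4) and 451 (T2) in tibia. The tibia T2 lay below the calvaria G1, and the log2 fold change of -0.39 (SE 0.184) had an adjusted p of 0.199 in edgeR's quasi-likelihood test, at the edge of the threshold. LOC699022, described as similar to IGFBP6 and listed under that symbol in RefSeq's table for a newer macaque assembly, had 92.2 (G1), 143 (G3) and 105 (T1) CPM in calvaria and 147 (G2), 144 (G4) and 166 (T2) in tibia. Its log2 fold change was -0.43 (SE 0.182, adjusted p 0.156 in edgeR's quasi-likelihood test), and the calvaria G3 was nearly level with the tibia G4. Without 1 of the libraries, 4 choices of 6 ended the call for LOC721120 and 5 of 6 for LOC699022.

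Some stromal markers also differed between the sites in macaque. The summed CPM of the 6 pericyte and stromal markers was 584 to 915 in calvaria and 1107 to 1843 in tibia. Of the 6, RGS5 and LEPR were called, at -1.67 and -0.84 (adjusted p 0.000812 and 0.0142 in edgeR's quasi-likelihood test), and PDGFRB, NOTCH3, CXCL12 and ACTA2 were not. By contrast, the 6 endothelial markers with a row overlapped, at 444 to 656 and 589 to 727. RGS5 is among genes the study itself picked from these libraries, so its call is not independent evidence. Skeletal muscle markers were near 0 at both sites, at 0.750 to 4.17 and 3.00 to 9.71 over the 3 with a row. Blood and fat markers were higher in calvaria without overlap, as the neutrophil markers were. Erythroid markers summed to 1157.5 to 1406 CPM in calvaria against 253 to 375 in tibia (2 of 6 with a row), adipocyte markers to 1484 to 2356 against 750 to 1429 (3 of 5) and B cell markers to 39.8 to 47.4 against 11.3 to 26.8 (4 of 6). The part of these cells in the values of IGFBP3, IGFBP7, IGFBP2 and IGF2BP3 was not tested.

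**Figure D3:**
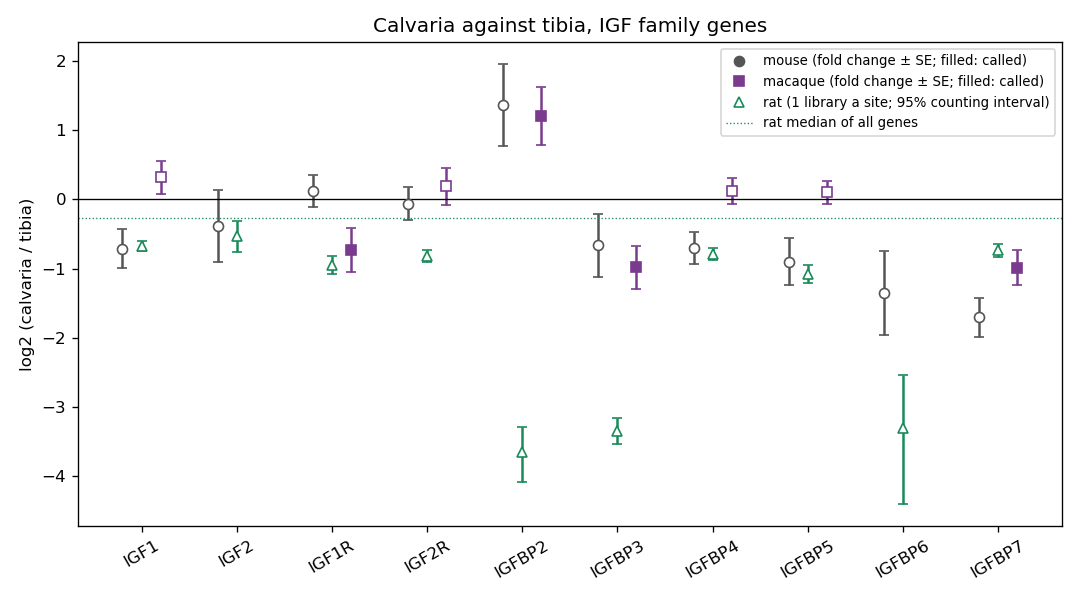
Log2 ratio of calvaria to tibia (vertical axis) for each gene, with circles for mouse and squares for macaque (bars are SE, filled symbols were called) and triangles for rat (bars are 95% counting intervals, dotted line the rat median of all genes at -0.28). IGFBP7 (-1.71, -0.99 and -0.74) and IGFBP3 (-0.67, -0.98 and -3.34) are below 0 in mouse, macaque and rat. In rat all 10 genes are below 0, as are 67.3% of all genes. IGFBP2 is at 1.36 in mouse, 1.20 in macaque and -3.66 in rat.

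The rat comparison rested on 1 library per site, so it has no test and no error beyond counting. Ratios of CPM were taken with 1 read added, and a log2 ratio beyond 2 in either direction was counted. This held for 3 of the 10 genes, all higher in tibia, where 6.51% of all 16671 rat genes were past the threshold and 5.94% were so with tibia higher. All 10 genes had more CPM in tibia, as did 67.3% of all genes, and the median log2 ratio was -0.88 against -0.28 over all genes. With TMM factors the share of all genes below 0 was 49.3%, the 10 genes stayed below 0, and the median was -0.60 against 0.01.

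The 3 rat genes past the threshold were all binding proteins. IGFBP2 had 59 reads (4.14 CPM) in calvaria and 648 (53.0 CPM) in tibia, 12.8-fold higher in tibia, with a log2 ratio of -3.66 (95% interval -4.09 to -3.29). IGFBP3 had 259 reads (18.2 CPM) and 2264 (185 CPM), 10.2-fold higher in tibia, with a log2 ratio of -3.34 (-3.54 to -3.16). IGFBP6 had 12 reads (0.842 CPM) and 109 (8.91 CPM), a log2 ratio of -3.30 (-4.40 to -2.54). These intervals come from the exact binomial method and cover counting error only. All 3 stayed past 2 with TMM factors, at -3.37, -3.06 and -3.01.

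The other 7 rat genes lay between -1.07 and -0.53. The ligand IGF1 had 2880 reads in calvaria and 3951 in tibia (log2 ratio -0.68), and IGF2 288 and 358 (-0.53). The receptors IGF1R, with 732 and 1214 reads, and IGF2R, with 1745 and 2644, had log2 ratios of -0.95 and -0.82. IGFBP5 had 726 and 1312 reads (-1.07), IGFBP4 1917 and 2852 (-0.79) and IGFBP7 1792 and 2565 (-0.74).

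Several marker lists differed between the 2 rat libraries. The 6 skeletal muscle markers summed to 7.16 CPM in calvaria and 669 in tibia, the 6 pericyte and stromal markers to 1087 and 2079, and the 7 endothelial markers to 225 and 427. With 1 library per site, their part in the high tibia values of IGFBP2, IGFBP3 and IGFBP6 cannot be told apart from site.

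The difference between the macaque and mouse site effects was tested as an interaction over the 10 libraries of both species and 6440 shared genes. None of the 8 genes was called in edgeR's quasi-likelihood test, where 6.68% of all tested genes were. An unadjusted p under 0.05 was reached by 973 of the 6440 genes, among them 4 of the family: IGFBP5 (difference in log2 fold change, macaque minus mouse, 0.99, SE 0.345), IGFBP4 (0.82, SE 0.304), IGF1R (-0.85, SE 0.345) and IGF1 (1.02, SE 0.424). Their adjusted p were 0.203, 0.229, 0.261 and 0.284 in edgeR's quasi-likelihood test. The differences were 0.71 (SE 0.425) for IGFBP7, -0.33 (SE 0.586) for IGFBP3, -0.16 (SE 0.769) for IGFBP2 and 0.25 (SE 0.409) for IGF2R. The call of a gene in macaque and its lack of a call in mouse therefore do not show that its site effect differed. Species also differed in genome, annotation and sequencing lane, which cannot be told apart here.

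**Figure D4:**
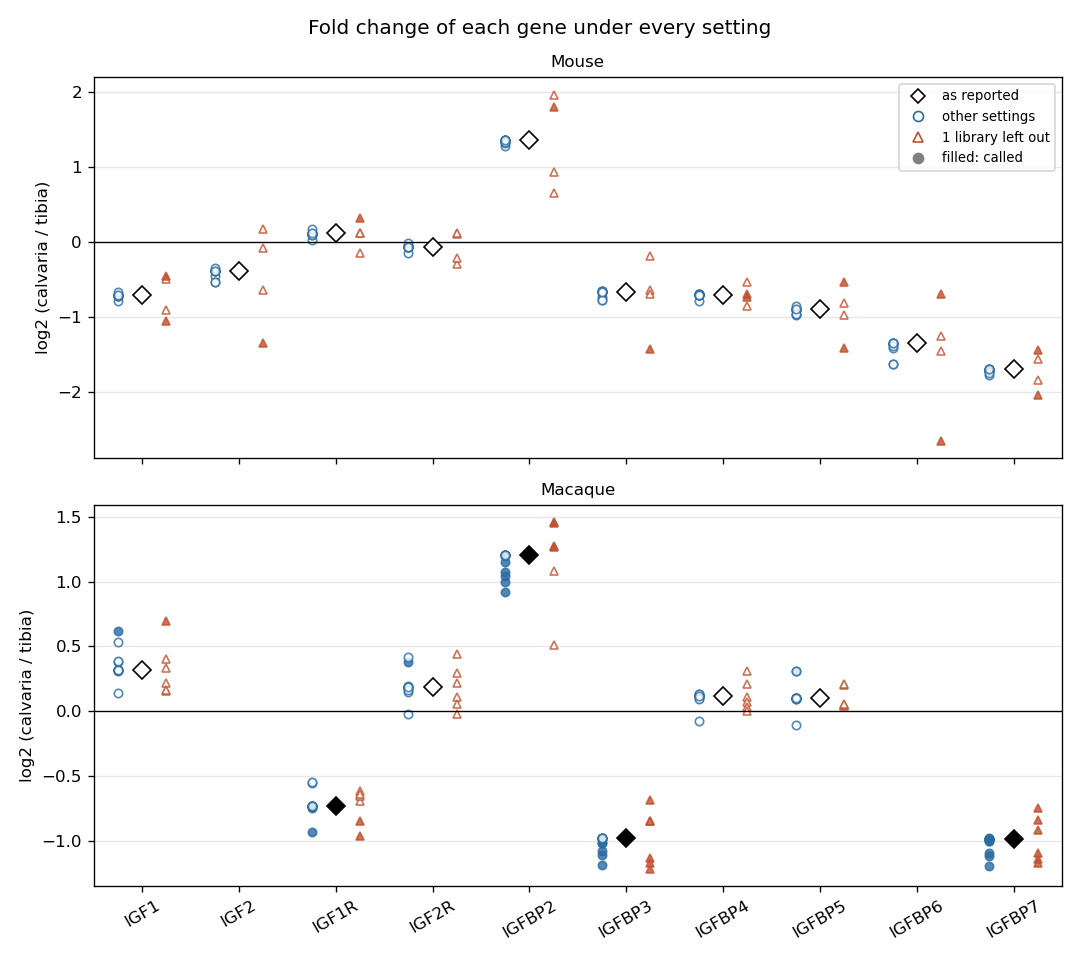
Log2 ratio of calvaria to tibia for each gene in mouse (top) and macaque (bottom) as reported (diamonds), under other processing settings (circles) and with 1 library left out (triangles), where filled symbols were called. IGFBP7 stays below 0 under every setting shown, from -2.05 to -1.44 in mouse and from -1.20 to -0.75 in macaque, whereas macaque IGFBP2 falls to 0.51 without 1 calvaria library.

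Genes that control how much IGF reaches its receptor were described from 5 lists. The availability list holds IGFBP proteases, their inhibitors, the acid-labile subunit and other binding proteins. Of its 12 genes 8 were tested in macaque, and 4 were called, all higher in tibia, where 14% of all tested genes were. PAPPA, a protease that cuts IGFBP4 and IGFBP5 and so frees IGF, had 11.5 (G1), 18.9 (G3) and 18.0 (T1) CPM in calvaria and 38.7 (G2), 44.5 (G4) and 57.8 (T2) in tibia. Every tibia was above every calvaria, and the log2 fold change was -1.54 (adjusted p 0.00252 in edgeR's quasi-likelihood test). STC1 and STC2, secreted inhibitors of PAPPA, had log2 fold changes of -1.16 and -1.34 (adjusted p 0.00337 and 0.0725), and HTRA1, a secreted serine protease that can cut IGFBP5, -0.84 (adjusted p 0.0109). Thus a protease and its inhibitors were higher at the same site. STC1 and STC2 are among genes the study itself picked from these libraries, so they are not independent evidence. The 4 calls held with each library left out in turn.

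In mouse 8 of these 12 genes were tested with edgeR's quasi-likelihood method and 0 passed, where 0.0836% of all genes did. An unadjusted p under 0.05 in that test was found for 2 of the 8, STC1 and STC2, and for 1256 of all 16740 genes. DESeq2 and the exact test each called those 2, where they called 2.59% and 2.52% of all genes. STC2 and STC1 had log2 fold changes of -1.74 (SE 0.339) and -2.05 (SE 0.525), with adjusted p of 0.395 and 0.512, and PAPPA -0.32 (SE 0.294). The median over the 8 was -0.45 in mouse and -0.59 in macaque. In rat 2 of the 8 genes with reads at both sites passed a log2 ratio of 2, both higher in tibia. Of all rat genes, 5.94% passed with tibia higher. The 2 genes were STC2 at -2.20 and HTRA1 at -2.15, and PAPPA was at -1.19. With TMM factors the counting interval of HTRA1 was -1.99 to -1.75, so HTRA1 no longer passed. That of STC2 was -2.73 to -1.27, on both sides of the threshold.

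The receptor-proximal list holds the insulin receptor and the adaptors and phosphatase that act next to it. Of its 10 genes 7 were tested in macaque, with 3 called higher in tibia and 1 in calvaria, against 14% and 14.8% of all tested genes. GRB10, an adaptor that dampens IGF1R and insulin receptor signalling, had 121 (G1), 121 (G3) and 118 (T1) CPM in calvaria and 269 (G2), 279 (G4) and 190 (T2) in tibia, at -1.03 on the log2 scale (adjusted p 0.00359 in edgeR's quasi-likelihood test). The 3 calvariae were nearly identical and all tibias were higher. The docking protein GAB1, with 9 to 20 reads in calvaria and 33 to 53 in tibia, stood at -1.32 (adjusted p 0.0822 in the same test) and the Ras activator SOS1 -0.42 (adjusted p 0.119). PTPN1, a phosphatase that switches off insulin and IGF receptors, was higher in calvaria at 0.70 (adjusted p 0.0122). The GAB1 call was lost without G1 or G2 (adjusted p 0.212 and 0.253) and that of SOS1 without G2, G3 or G4 (0.271 to 0.313). After a correction for gene length, 2 genes of the list were called higher in tibia and 1 in calvaria, where 1687 and 1788 of all 13094 genes were. In mouse all 10 were tested, with 0 called by edgeR's quasi-likelihood method, by the exact test or by DESeq2 and 0 at an unadjusted p under 0.05, and GRB10 was at 0.00 (SE 0.377).

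Of the 22 genes of the PI3K, AKT, mTOR and FOXO chain below the receptor, 15 were tested in macaque and 4 were called, all higher in tibia with small fold changes, where 28.8% of all macaque genes were called and 14% higher in tibia. FOXO1, a transcription factor that AKT keeps out of the nucleus, had a log2 fold change of -0.63 (adjusted p 0.0407 in edgeR's quasi-likelihood test), the catalytic subunit PIK3CA -0.59 (0.0664), the growth brake TSC1 -0.56 (0.110) and the S6 kinase RPS6KB1 -0.43 (0.0888). The calls of TSC1 and RPS6KB1 were lost without G2, G4 or T1 (adjusted p 0.301 to 0.320 and 0.227 to 0.271). Over all 13094 macaque genes the log2 fold change fell with exonic length (Spearman correlation -0.222). After a correction for gene length, 3 genes of the list were called higher in tibia and 1 in calvaria, where 1687 and 1788 of all genes were. The list median was -0.18 in macaque. In mouse all 22 were tested, 0 were called by any of the 3 tools, 1 had an unadjusted p under 0.05 in the quasi-likelihood test and the median was -0.03, and in rat 0 of 22 passed a log2 ratio of 2, which 6.51% of all rat genes did.

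The growth hormone list covers the receptor that drives IGF1 expression, its kinase and its inhibitors. In macaque 4 of its 8 genes were tested and 1 was called, against 28.8% of all tested genes. This was SOCS1, an inhibitor of that signalling, which reached 1.37 on the log2 scale (adjusted p 0.191 in edgeR's quasi-likelihood test). Its reads were 37 (G1), 47 (G3) and 10 (T1) in calvaria and 9 (G2), 8 (G4) and 26 (T2) in tibia, so the sites overlapped. The call was lost without G1, G2, G3 or G4, at adjusted p between 0.345 and 0.481. In mouse 8 were tested, 0 were called by any of the 3 tools and 1 had an unadjusted p under 0.05 in the quasi-likelihood test, and in rat 0 of 8 passed a log2 ratio of 2, against 6.51% of all rat genes.

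IGF2BP3, one of the proteins that bind IGF2 mRNA, was higher in macaque calvaria. It had 142 (G1), 172 (G3) and 228 (T1) reads in calvaria and 28 (G2), 39 (G4) and 65 (T2) in tibia. The calvariae were all above the tibias, with a log2 fold change of 2.26 (SE 0.326) and an adjusted p of 0.00147 in edgeR's quasi-likelihood test. In mouse it had 8 (M4) and 3 (M8) reads in calvaria and 0 in both tibias, so the fit as reported left it out. With all symbols that had a read in some mouse library, 0 of the 3 genes of its list were called, where 510 of 22339 genes were. In rat it had 0 reads in both libraries. IGF2BP3 was the 1 gene of its list of 3 that was tested in macaque in the fit as reported.

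**Figure D5:**
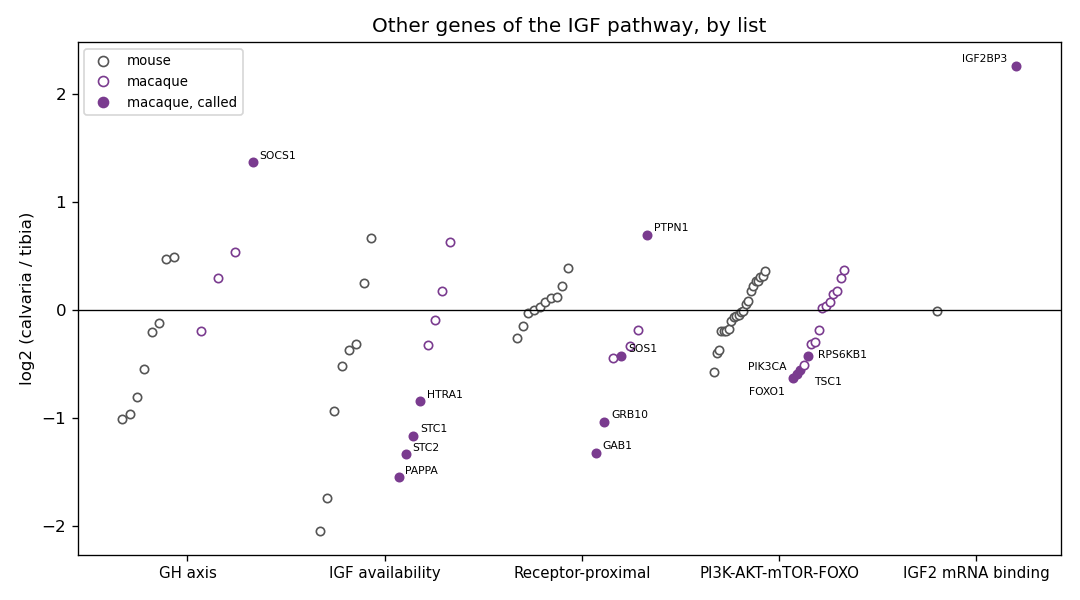
Log2 ratio of calvaria to tibia (vertical axis) for each tested gene of the 5 pathway lists (horizontal axis), with grey circles for mouse and purple circles for macaque, filled and named where called. Among the availability genes 4 macaque genes from HTRA1 at -0.84 to PAPPA at -1.54 were called below 0, and no mouse gene was called by edgeR's quasi-likelihood test in any list.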

How the data were processed

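Poly(A)+ RNA of 12 libraries was sequenced by the authors. According to the study's methods, single-end reads were mapped with HISAT2 and counted on merged exons with HTSeq-count, ignoring strand; the submitters' processing notes instead list BWA 0.7.10-r789. The deposited values used here are raw read counts per gene, without normalization, with the exonic length of each gene. The normalised values beside them were not used. Rows naming no gene (0.00261% to 0.0663% of reads) were dropped and rows of equal symbol summed. Each of mouse and macaque had its own fit in edgeR 4.0.16 under R 4.3.3 (TMM, quasi-likelihood test, Benjamini-Hochberg adjustment) on genes with at least 1 read in every library. The SE is the log2 fold change divided by the square root of F. TMM factors lay between 0.882 and 1.13. Rat ratios used 1 added read and library size alone. The biological coefficient of variation came to 0.316 (mouse) and 0.267 (macaque).

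The genes, lists and markers were chosen with earlier results of these data known. All 10 genes are named, with at most 4 called genes per pathway list and species. P-values measure only the spread between these libraries. The methods state that sites were paired but name no pairs. For assumed macaque pairs, deviations from the site means correlated over 11948 genes with r of 0.174 (G1 and G2), 0.263 (G3 and G4) and 0.415 (T1 and T2), against -0.318 to 0.0633 for other combinations. In mouse this check carries no information. Simulated data had 200 genes changed by a log2 fold change of 2. Of these the test recovered 187 in mouse (16417 genes), 197 in macaque (12868) and 181 for the interaction (6352). It also called 47, 39 and 71 unchanged genes, in the same order. The changed genes were drawn from well-counted ones, and each simulated gene varied only as the trend over all genes sets, with no spread of its own. The recovery therefore does not carry over to the mouse libraries. There DMP1 at -2.89 and SOST at -2.83 were not called (adjusted p 0.209 and 0.284 in edgeR's quasi-likelihood test). Recovery at smaller fold changes was not tested. DESeq2 1.42.0 and edgeR's exact test were alternatives.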

Additional observations from a re-analysis of the deposited data

Results flagged for a closer look

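IGFBP2 had opposite directions between species: the log2 ratio of calvaria to tibia was 1.36 in mouse and 1.20 in macaque, with every calvaria library above every tibia library, and -3.66 in rat. The sites did not overlap for 40.1% of all mouse and 32.3% of all macaque genes tested. Mouse IGFBP2 was not called (adjusted p 0.676 in edgeR's quasi-likelihood test), and the macaque value fell to 0.51 without G3. The difference between rat and the other species was not tested, since rat had 1 library per site. RPS6KB1, the S6 kinase below mTOR, also went opposite ways, with -0.43 in macaque, all tibias above all calvariae, and 0.73 in rat, from 148 reads in calvaria and 76 in tibia. The rat 95% counting interval was 0.33 to 1.16, and the difference was not tested. The macaque call of RPS6KB1 was lost without G2, G4 or T1.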

How the results depend on the processing

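Over all settings, 413 of the values for single genes kept their direction and side of the threshold, 35 newly passed it, 26 lost it and 14 changed sign. In mouse the number of genes called was 14 as reported, 434 with DESeq2, 422 with the exact test, 510 with all symbols, 29 with filterByExpr and 3 at a false discovery rate of 0.05, and it ranged from 5 to 7174 with 1 library left out. Of the 10 family genes 0 were called as reported, 1 (IGFBP7) with DESeq2, with the exact test, with all symbols and with a replicate block, and 0 to 8 with 1 library left out. The replicate block for assumed pairs called 64 genes in mouse, the other pairing 140, and in macaque 4875, where no family gene changed its call. With the block and a length correction together, 6 macaque family genes were called: IGF1, IGF2R and IGFBP5 were added and IGF1R (adjusted p 0.223 in edgeR's quasi-likelihood test) was lost. In macaque 3773 genes were called as reported, 2136 among symbols shared by the species, 1539 at 0.05 and 2000 to 4884 with 1 library left out, and 4, 1 (at 0.05) and 1 to 5 family genes. With library size alone the macaque calls split into 1265 higher in calvaria and 3162 in tibia, against 1937 and 1836, and IGF2R (-0.022), IGFBP4 (-0.074) and IGFBP5 (-0.11) changed sign. In rat 1085 genes passed as reported, 617 with 5 reads added, 1864 with all symbols and 4052 at a log2 ratio of 1. The interaction called 430 genes, 58 at 0.05 and 40 to 1161 with 1 library left out, and 0 family genes, 3 with library size alone and 0 to 4 with 1 library left out. With 1 library left out, log2 values that changed sign ranged from -1.35 to 0.17 (mouse IGF2), -0.15 to 0.32 (mouse IGF1R), -0.30 to 0.12 (mouse IGF2R), -0.022 to 0.44 (macaque IGF2R), -0.0032 to 0.31 (macaque IGFBP4), and for the interaction -0.86 to 0.52 (IGFBP2) and -0.85 to 0.43 (IGFBP3). The causes were not tested. Some genes had few reads: mouse IGFBP2 and macaque IGF1R rest on 23 to 132 and 39 to 95 reads per library. The part of depth in these changes was not tested.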
